A study of Mus musculus with 2 samples.

Results

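The genes described here are 40 immediate early genes and feedback inhibitors of the ERK mitogen-activated protein kinase pathway, chosen by name as the probe sets whose platform annotation gave exactly 1 of these symbols. All 40 had at least 1 probe set, 80 probe sets in total, among 18193 genes measured. They were grouped as 10 AP-1 genes (the Fos, Jun, Atf3 and small Maf genes), 4 Egr genes, 7 dual specificity phosphatase (Dusp) genes, 6 Sprouty and Spred genes, 3 further genes linked to Fgf and ERK signalling (Etv4, Etv5 and Il17rd) and 10 other immediate early genes. Stromal cells of the uterus were taken on day 4 of pregnancy, and the strain was C57BL/6. One group was the Msx1Msx2 Floxed Control, the other was Msx1Msx2-null, in which the floxed alleles were crossed to PRcre mice to delete the homeobox genes Msx1 and Msx2 in the uterus. PRcre places Cre under the progesterone receptor gene, so deletion follows the cells that express it, in epithelium and muscle as well as stroma. Uterine tissue of both genotypes was treated with dispase and pancreatin and then with collagenase at 37 °C before RNA extraction. Each genotype was measured as 1 array of RNA pooled from several mice, given as 5 per genotype in the design text and 4 in the extraction protocol. With 1 array per genotype there is no replicate error and no test, and every difference below compares those 2 arrays.

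Immediate early genes are transcribed within minutes of a stimulus, without the need for new protein synthesis. ERK, activated by growth factor receptors through Ras, Raf and Mek, phosphorylates ternary complex factors that sit with serum response factor on the CArG box of many of these promoters, and stress kinases act on several of the same genes. The products include the AP-1 and Egr transcription factors and, in a negative feedback, phosphatases of the Dusp family and Sprouty and Spred proteins that restrain the pathway. In uterine tissue these genes respond to estrogen and growth factors, and enzymatic dissociation of tissue is itself known to induce them.

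Values are MAS5 signals, an intensity per probe set on a linear scale, and ratios are log2 of null over control, so that a negative ratio is a lower signal in the null array. Each gene was read on the brightest of its probe sets, by mean log2 signal. A floor was set at each array's median probe set, a signal of 31.0 for the control and 30.1 for the null array. Genes under it in both arrays were left out, and where 1 array was under it the ratio is a bound. Probe noise was judged from pairs of probe sets of the same gene, which gave an SD of 0.27 for a single probe set's log2 ratio, and 0.32, 0.27 and 0.21 for tertiles of signal from dim to bright. Variation among mice, pools and hybridizations is not part of this SD. Loss of RNA integrity raises the 3'/5' signal ratio, which for Gapdh went from 0.967 (control) to 1.28 (null) and for Actb from 1.80 to 2.33, and its part in the results below was not tested. The targeted genes, which check the labels, had lower null signals, Msx1 by at least 52.6-fold and Msx2 by at least 2.12-fold. Stromal fibroblast markers were above the floor for 12 of 12 genes, but so were 11 of 11 measured epithelial markers and 12 of 12 markers each of endothelium and of macrophages, so transcripts of these cell types were present in both preparations.

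Of the 40 genes, 36 were above the floor in at least 1 array. These 36 had a median log2 ratio of -0.38, with 29 lower and 7 higher in the null array, while over all 11833 genes above the floor the median was 0.02 and 47.7% were lower. Past 2-fold, 4 of the 36 were lower (Egr3, Atf3, Spry4 and Egr2), against 1.80% of all genes, and 0 were higher, against 1.59%. At 1.5-fold, 10 were lower, against 6.92% of all genes, and 0 were higher, against 6.79%. Sizes were thus mostly modest, with 13 of the 36 within the SD of 0.27 over all pairs, 20 lower by more than that and 3 higher (Dusp2, Dusp5 and Myc). For scale, 20.9% of all genes above the floor had a ratio lower than that of Jund (-0.26). The share lower than Myc (0.28) was 78.8%, so most of all genes also lay in about this band. Among the 21 members in the brightest tertile of signal, where probe noise is smallest, 17 were lower, against 46.1% of that tertile, and 6 were lower by 1.5-fold, against 3.96%. Read by probe set, 53 of the 80 probe sets were above the floor in each array, 37 of them lower and 16 higher, against 50.7% lower over all such probe sets. Of the 11 members with more than 1 of these, 8 had the same sign on each and 3 (Spred1, Ier5 and Btg1) did not. The 4 genes under the floor in both arrays were Fosl1, Dusp4, Spred3 and Etv4, and a signal under the floor does not show that a gene was silent. The 23 immediate early genes (AP-1, Egr and other classes) had a median of -0.44 with 20 lower, and the 13 feedback and Fgf-linked genes a median of -0.20 with 9 lower. The difference between these subsets was not tested.

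**Figure D1:**
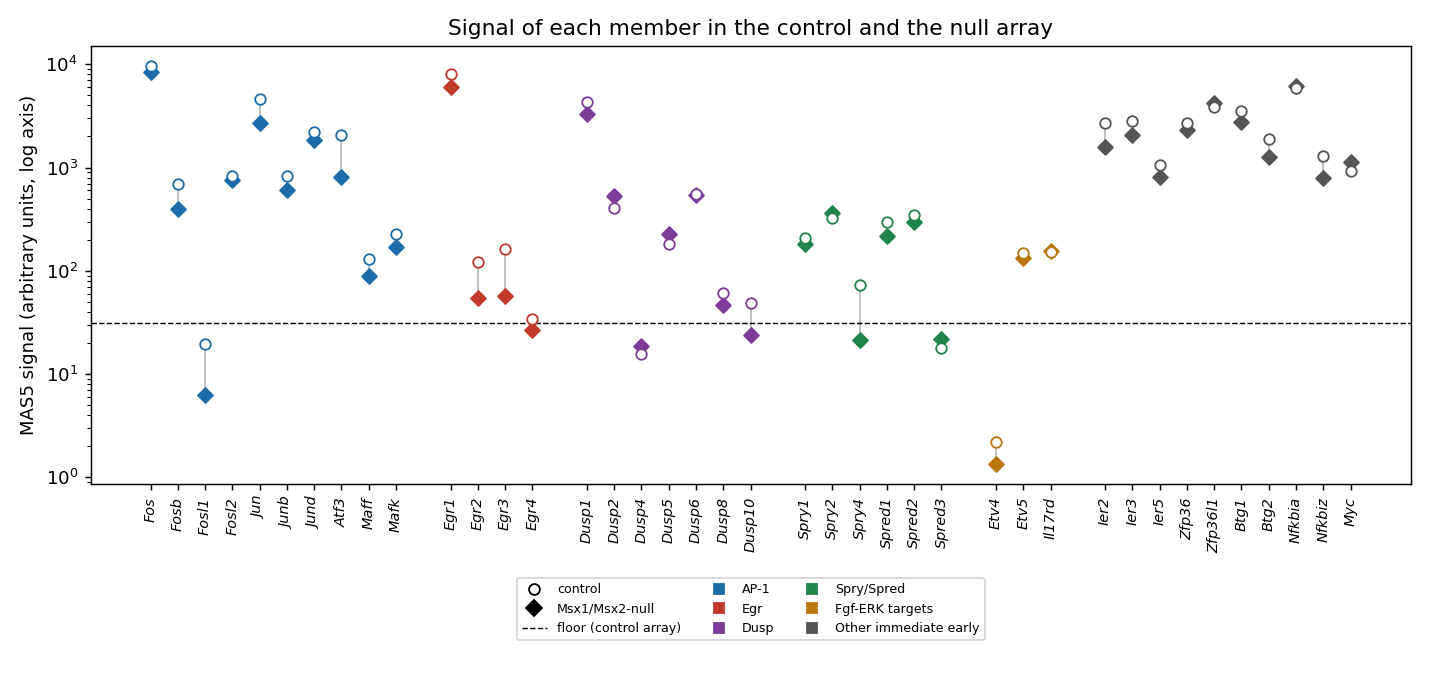
MAS5 signal (log axis) of each of the 40 genes in the control array (open circles) and the Msx1/Msx2-null array (filled diamonds), coloured by class, 1 array per genotype, with a dashed line at the control floor of 31.0. The diamonds lie under the circles for each AP-1 and Egr gene, while Dusp2, Dusp5, Spry2, Myc, Zfp36l1, Nfkbia and Il17rd show the reverse. Fosl1, Dusp4, Spred3 and Etv4 lie under the floor, and of these Dusp4 and Spred3 also show the reverse.

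All 9 measured AP-1 genes had a lower signal in the null array, with a median log2 ratio of -0.46 and a range from -1.35 to -0.14. AP-1 is a dimer of basic leucine zipper proteins, most often 1 Fos and 1 Jun protein. The founding Fos gene, a short-lived partner of Jun, had control and null signals of 9652 and 8380, a log2 ratio of -0.20 that lies within probe noise. Fosb, its close relative with a more stable splice form, went from 687 to 393, 1.75-fold lower. Fosl2, a Fos relative that lacks the strong activation domain, had 834 and 756 and a log2 ratio of -0.14, and its second probe set gave -0.45. On the brightest probe sets the ratio of Fosb was thus beyond the SD of 0.27 and those of Fos and Fosl2 within it, while the second probe set of Fosl2 was beyond it, and differences between the genes were not tested. Fosl1, a later-induced member, had 19.5 and 6.22, both under the floor.

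Each of the 3 Jun genes had a lower signal in the null array. Jun, the AP-1 subunit phosphorylated by the stress kinase JNK, went from 4577 to 2730, 1.68-fold lower, and its second probe set, from 1611 to 1055, gave a log2 ratio of -0.61 against -0.75 on the first. Junb, a weaker activator that can oppose Jun, went from 833 to 605 with a log2 ratio of -0.46. Jund, the member that is expressed without stimulation, had 2197 and 1834 and a log2 ratio of -0.26. Jund thus lay just within the SD of 0.27 over all pairs, and beyond that of 0.21 for the brightest tertile.

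Atf3, a stress-induced member of the family that represses many of its targets, had the lowest AP-1 ratio. On its only probe set the signal went from 2084 to 815, 2.56-fold lower, and 0.80% of all genes above the floor had a lower ratio. The small Maf genes Maff and Mafk, which lack an activation domain and pair with other zipper proteins, went from 129 to 88.9 and from 229 to 169, with log2 ratios of -0.54 and -0.44. Other AP-1 and Maf family genes that are less dependent on stimulation gave a median of -0.10 over 10 genes, with 6 lower and 4 higher and 0 past 2-fold in either direction. In that list Atf4, the translationally controlled factor of the integrated stress response that acts upstream of Atf3, went from 1960 to 1331 (log2 ratio -0.56), and Jdp2, an AP-1 repressor, from 143 to 191 (0.42), whereas Atf7 and Batf3 had -0.30 and -0.27.

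The Egr genes, zinc finger factors induced through ERK and serum response factor, were lower in 4 of 4, with a median log2 ratio of -0.79. Egr1, the most widely induced of them, had signals of 8067 and 6019 and a log2 ratio of -0.42. Egr2, which carries a CArG box ahead of its start, went from 123 to 54.9, 2.24-fold lower, and its second probe set, from 68.2 to 38.4, gave -0.83. Egr3, itself a target of Egr1 in other cells, went from 162 to 56.7, 2.85-fold lower. That was the lowest ratio of the 33 members above the floor in both arrays, while the ratio of Spry4, described below, is a bound and may be lower. The second probe set of Egr3 had 14.4 and 15.2, under both floors. Egr4 was barely above the floor in the control, at 34.4 against 26.6, at least 1.14-fold lower. Both Egr genes past 2-fold thus had null signals not far above the floor of 30.1, and with the floor at the 65th percentile their ratios shrank to -0.995 for Egr3 and -0.60 for Egr2.

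The CArG box, the element bound by serum response factor, was looked for in the RefSeq promoter windows of GRCm38.p6, which run from 250 bases before to 50 after a gene's start and were present for 31 of the 40 genes. It was found on either strand for 3 of these 31 genes, 9.68%, against 1.81% of all 27025 genes with a window. Boxes outside the window, or in the 9 members without a window, such as Egr1 and Egr3, were not looked for. A gene without a match here, such as Fos, may therefore still carry one. The 3 genes with a match, Egr2, Zfp36 and Dusp5, are all shown and had log2 ratios of -1.16, -0.20 and 0.33. Atf3 is added as the AP-1 gene with the lowest ratio. Each line gives the 250 bases before the start on the gene's own strand, with the CArG box in capitals or, for Atf3, the short cAMP response element TGACG, which is read there on the opposite strand.
Egr2: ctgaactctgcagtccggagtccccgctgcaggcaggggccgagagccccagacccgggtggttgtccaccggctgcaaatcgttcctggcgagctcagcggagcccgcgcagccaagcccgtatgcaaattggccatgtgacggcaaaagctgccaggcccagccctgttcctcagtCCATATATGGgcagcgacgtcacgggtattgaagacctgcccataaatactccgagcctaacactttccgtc
Zfp36: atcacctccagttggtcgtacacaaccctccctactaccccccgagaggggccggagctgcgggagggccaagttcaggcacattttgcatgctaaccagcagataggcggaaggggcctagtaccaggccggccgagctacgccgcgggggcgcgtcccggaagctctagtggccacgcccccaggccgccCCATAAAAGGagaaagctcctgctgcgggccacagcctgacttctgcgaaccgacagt
Dusp5: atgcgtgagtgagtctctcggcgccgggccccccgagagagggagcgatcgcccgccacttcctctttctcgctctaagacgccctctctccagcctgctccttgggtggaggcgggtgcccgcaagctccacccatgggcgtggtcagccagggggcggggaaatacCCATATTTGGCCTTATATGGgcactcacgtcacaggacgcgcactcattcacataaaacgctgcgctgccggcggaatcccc
Atf3: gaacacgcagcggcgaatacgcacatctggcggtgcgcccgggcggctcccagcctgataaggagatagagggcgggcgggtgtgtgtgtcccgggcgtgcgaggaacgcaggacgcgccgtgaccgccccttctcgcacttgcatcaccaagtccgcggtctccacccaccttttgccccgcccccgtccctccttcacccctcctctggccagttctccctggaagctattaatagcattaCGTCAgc
The Egr2 stretch is chr10:67537619-67537868 on the plus strand, with the box beginning 72 bases before the start, and is 1 of 5 windows of this gene, of which 4 hold a match at 2 distinct sites. Zfp36 lies at chr7:28379229-28379478 on the minus strand, with the box 58 bases before the start. Dusp5 lies at chr19:53528895-53529144 on the plus strand and has 2 adjoining boxes, beginning 82 and 72 bases before the start. Atf3 lies at chr1:191183334-191183583 on the minus strand, with this element 7 bases before the start. Of the 3 genes with a box, Egr2 was past 2-fold lower, Zfp36 was within probe noise and Dusp5 was higher. A link between the box and the ratio was not tested.

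Other motifs were present in different shares of the members' windows. The full cAMP response element TGACGTCA was in the windows of 4 of 31 genes (Btg2, Dusp1, Dusp8 and Maff), 12.9% against 2.03% of all genes, and its core TGACG, which the full element also contains, in 15 of 31, 48.4% against 23.0%. Egr sites, GCGTGGGCG or GCGGGGGCG, were in 6 of 31, 19.4% against 3.93%, in Fosb, Fosl2, Maff, Mafk, Dusp2 and Zfp36. An AP-1 site TGANTCA was in 1 of 31, that of Zfp36l1, 3.23% against 8.97%. The members' windows had a median GC content of 61.2%, against 52.7% over all windows. These shares describe letters in the window, and neither they nor the part of GC content in them was tested.

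**Figure D2:**
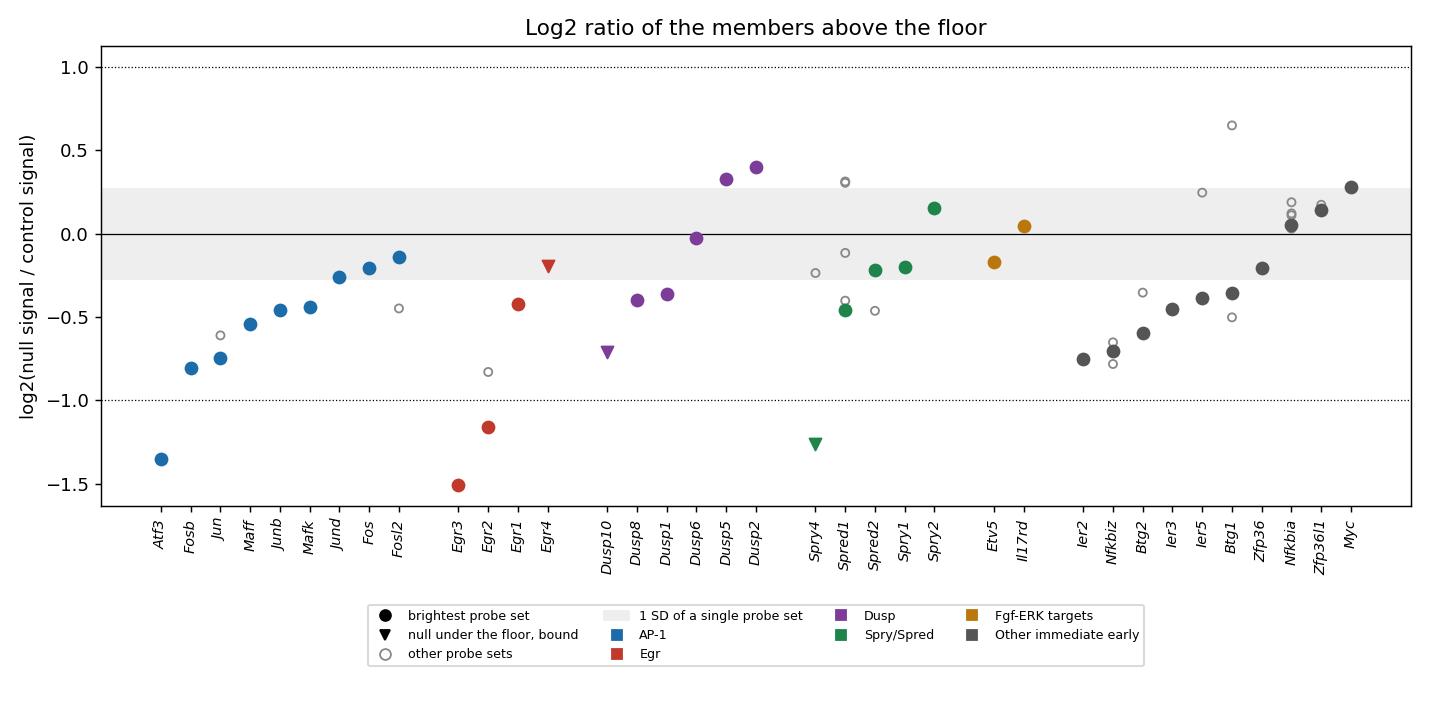
Log2 ratio of null over control signal for the 36 genes above the floor, ordered within each class. Filled circles are the probe set used, triangles are bounds with the null signal under the floor, open circles are further probe sets readable in both arrays, the grey band is 1 SD of a single probe set (0.27) and dotted lines mark 2-fold. The 9 AP-1 and 4 Egr genes lie below 0, and the Dusp genes spread from -0.71 to 0.40.

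The 10 other immediate early genes divided, with 7 lower and 3 higher in the null array and a median log2 ratio of -0.37. Ier2, a small nuclear protein of the growth factor response, went from 2685 to 1595, 1.68-fold lower. Nfkbiz, a nuclear inhibitor of kappa B protein that helps transcribe secondary inflammatory genes, went from 1284 to 787, 1.63-fold lower, and its other 2 probe sets gave log2 ratios of -0.78 and -0.65. Btg2, an antiproliferative gene that recruits the deadenylase of messenger RNA, went from 1903 to 1257, 1.51-fold lower, with -0.35 on its second probe set. These 3 were the genes of the class past 1.5-fold. Ier3, a modulator of ERK and survival signalling, had 2803 and 2052 and a log2 ratio of -0.45. Ier5 and Btg1 had -0.39 and -0.35, but each had another probe set of opposite sign, 0.25 for Ier5 and 0.65 for Btg1, so their direction depends on the probe set.

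Zfp36, Zfp36l1 and Nfkbia, also of this class, had ratios within 0.27 of 0. Zfp36, the tristetraprolin gene that destabilizes cytokine messenger RNA, had 2682 and 2328 and a log2 ratio of -0.20. Its relative Zfp36l1 had 3855 and 4257, a log2 ratio of 0.14, and 0.17 on the second probe set. Nfkbia, which encodes the inhibitor that NF-kappa B induces to end its own activity, had 5950 and 6163, and all 5 of its probe sets had small positive ratios, from 0.03 to 0.19. Nfkbia and Nfkbiz, both NF-kappa B targets, therefore gave unlike ratios on the probe sets measured, from 0.03 to 0.19 and from -0.78 to -0.65. Myc, a growth regulator induced by mitogens, went from 924 to 1122, a log2 ratio of 0.28.

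The phosphatases of the Dusp family, which remove phosphate from ERK, JNK and p38, were lower in 4 of 6 and higher in 2, with a median log2 ratio of -0.20. Dusp1, the stress-induced nuclear phosphatase that favours p38 and JNK, had 4282 and 3327 and a log2 ratio of -0.36. Dusp8, which also favours JNK and p38, had 61.6 and 46.7 and -0.40, and its other 2 probe sets were under the floor in at least 1 array. Dusp10, also of that kind, went from 49.1 to 23.9, at least 1.63-fold lower. Thus the 3 stress kinase phosphatases each had lower signals, but 2 of them were dim.

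The phosphatases that act on ERK did not share that direction. Dusp6, the cytoplasmic ERK phosphatase whose transcript is a common readout of Fgf signalling, had nearly equal signals of 556 and 546 and a log2 ratio of -0.03. Dusp5, a nuclear ERK phosphatase, went from 182 to 228, a log2 ratio of 0.33. Dusp2, another nuclear phosphatase that is abundant in activated immune cells, had 406 and 536, with a log2 ratio of 0.40, the highest of the 36 genes. Dusp4 was under the floor, at 15.6 and 18.5. None of the 3 measured genes among these was therefore lower beyond probe noise. With the floor at the 65th percentile, which drops the dim Dusp8 and Dusp10, the median of the class turned to 0.15. A list of 10 other Dusp genes, which are less tied to immediate early induction, had 8 above the floor with a median of 0.12, 3 lower and 5 higher and 0 past 2-fold. Among them Dusp16, also a JNK phosphatase, went from 263 to 416 (log2 ratio 0.66), so it did not share the lower signals of Dusp1, Dusp8 and Dusp10. Dusp18 had -0.34, and Dusp3 and Dusp7 had 0.46 and -0.32 with a second probe set of opposite sign each. A difference by substrate among Dusp genes was not tested.

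Transcripts of the Sprouty and Spred proteins, membrane-bound inhibitors of Ras and Raf activation, were lower in 4 of 5 with a median log2 ratio of -0.22, and Spry4 stood apart from the rest. On its brightest probe set Spry4 went from 72.1 to 21.5, at least 2.40-fold lower. A second probe set went from 43.6 to 25.9, also a bound, and the third, readable in both arrays, went from 39.7 to 33.7 with a log2 ratio of only -0.24. The fourth was under the floor. All 3 probe sets above the floor in at least 1 array were lower, but the size rests on 1 dim probe set, and the median over probe sets was -0.54. Spry1 had 209 and 182 and a log2 ratio of -0.20. Spry2 had 326 and 363 and 0.15, its second probe set going from 39.8 to 28.7, so that the median over probe sets turned to -0.12.

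The Spred genes differed between arrays by less than 1.5-fold. Spred1, which brings the Ras inactivator neurofibromin to the membrane, had 300 and 218 and a log2 ratio of -0.46. It was read by 8 probe sets, 5 of them readable in both arrays, and of the other 4 of these 2 were lower and 2 higher, with a median over probe sets of -0.12. Spred2 had 346 and 298 and -0.22, with -0.46 on a second probe set. Spred3 was under the floor at 17.9 and 22.1. Among the Fgf-linked genes, Etv5, an Ets factor induced by Fgf through ERK, had 150 and 133 and -0.17, and Il17rd, the Sef inhibitor of Fgf signalling, had 152 and 156 and 0.04. Etv4 was under the floor, at 2.20 and 1.34. Of the 13 measured feedback and Fgf-linked genes, 6 (Dusp6, Etv5, Il17rd, Spry1, Spry2 and Spred2) lay within the SD of 0.27 of no difference on their brightest probe sets. Most of all genes above the floor also lay in about this band, by the shares given above for Jund and Myc.

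**Figure D3:**
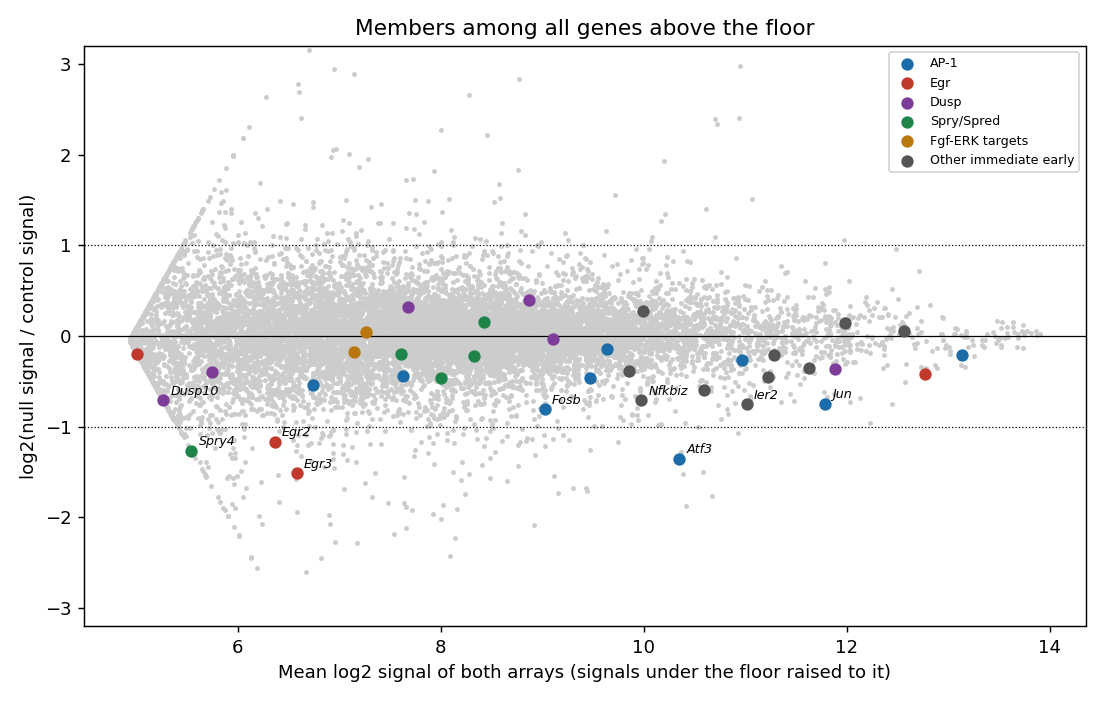
Log2 ratio of null over control against the mean log2 signal of both arrays, for the 11833 genes above the floor (grey, 7 of them outside the plotted range) and the 36 members in the colours of their class. Dotted lines mark 2-fold and the members with a ratio beyond 0.7 in size are named. Atf3, Jun and Ier2 lie at the lower edge of genes of similar brightness, while Egr2, Egr3, Spry4 and Dusp10 lie in the dim range where the spread of all genes is wide.

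Genes upstream of the members were split more evenly between directions, a difference that was not tested. Of 15 measured genes of the ERK cascade, from the adaptors to Ras, Raf and Mek, 6 were lower and 9 higher with a median log2 ratio of 0.03 and 0 past 2-fold. The largest ratios were -0.87 for the adaptor Grb2, -0.63 for the Ras inactivator Nf1, 0.54 for the scaffold Ksr1 and 0.50 for the kinase Araf, and Grb2 and Araf had opposite signs on all of their other readable probe sets. Of 10 serum response and ternary complex genes, 6 were lower and 4 higher with a median of -0.09. With the median over probe sets, this list had a median of -0.22 and the ERK cascade list 0.02. Srf itself had 282 and 293 and a log2 ratio of 0.05, with a second probe set of opposite sign. Rps6ka5, a kinase of Creb and histone H3 downstream of ERK and p38, had -0.70, and the coactivator genes Mrtfb and Fhl2 and the ternary complex factor Elk3 had -0.33, -0.30 and -0.22.

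A list of 30 other immediate early genes, chosen like the members with earlier results of these data known, was described beside them. All 30 were above the floor, and 26 were lower and 4 higher with a median of -0.35, against 47.7% lower over all genes. Past 2-fold, 1 was lower, against 1.80% of all genes, and 0 were higher, against 1.59%. Gadd45b, a stress sensor upstream of p38, went from 709 to 323, 2.20-fold lower, although 1 of its other 2 probe sets had the opposite sign. The orphan receptor gene Nr4a3 had -0.78, the pseudokinase gene Trib1 -0.76, and Cebpd, an acute phase transcription factor with a second probe set of opposite sign, -0.66. Nr4a1, induced by the same stimuli as Fos, went from 2279 to 1608 (-0.50), whereas Ptgs2, the inducible prostaglandin synthase, went from 206 to 307 (0.57). Nr4a2, related to Nr4a1 and Nr4a3, was also higher, from 297 to 396 (0.41), with the same sign on its 3 other readable probe sets. Both the members and this list thus held a majority of lower genes with a minority in the other direction.

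Heat shock genes, which tissue dissociation can also induce, and markers of the cell types of the uterus were read on the same arrays, and their part in the members' ratios was not tested. Of 12 heat shock genes 7 were lower and 5 higher with a median log2 ratio of -0.18 and 0 past 2-fold. Hspa1a, Dnajb4 and Hspb1 had -0.62, -0.49 and -0.45, while Hsph1 had 0.43. Hspa1b, a near copy of Hspa1a, had -0.35 on a separate probe set, and signals of these near copies cannot be fully told apart. Of 12 endothelial markers 12 were lower, with a median of -0.66 and summed signals of 5575 (control) and 3706 (null), among them Emcn, Pecam1 and Tek at -0.89, -0.80 and -0.76. Of 12 macrophage markers 12 were lower, with a median of -0.47 and summed signals of 8353 and 5926, among them Fcgr3, Mrc1 and Adgre1 at -1.08, -1.02 and -0.73. Of 5 neutrophil markers on the array 4 were above the floor. All 4 were lower, with a median of -0.46 and summed signals of 280 and 187. Csf3r, S100a9 and S100a8 had -0.91, -0.54 and -0.35, and Mmp9, from 39.1 to 22.1, was a bound. These genes were dim, and with the floor at the 65th percentile the median was -0.18. Of 7 pericyte markers 6 were lower, with a median of -0.51 and summed signals of 10693 and 7629, among them Notch3, Abcc9 and Mcam at -0.81, -0.57 and -0.53.

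Other markers went the opposite way or were mixed. Of 8 natural killer and T cell markers 7 were higher, with a median of 0.66 and summed signals of 1836 and 3187, with Cd3d, Gzma and Gzmb at 1.11, 0.89 and 0.87. Cd3d went from 38.1 to 82.2, near the floor of 31.0 in the control. Cd3g, another T cell marker, went the other way, from 95.2 to 87.8 (-0.12). Of 8 smooth muscle markers 7 were higher, with a median of 0.40 and summed signals of 10897 and 14564, with Synpo2, which had a probe set of opposite sign, Cnn1 and Actg2 at 0.82, 0.70 and 0.66. Stromal fibroblast markers had a median of 0.10 with 4 lower and 8 higher and summed signals of 61060 and 62836. Among them Hoxa11 had 0.80, Hand2 0.63 with a second probe set of opposite sign, and Mme -0.61. Of 11 epithelial markers 8 were lower and 3 higher, with a median of -0.10 and summed signals of 10781 and 9014, the extremes being Foxa2 at -2.18, Krt18 at -1.06 and Krt19 at 1.04. No marker was at 0 in either array, and Cxcr2 (neutrophil) and Cd3e (T cell) were the measured markers under both floors. In pooled RNA of cell preparations of this kind, fewer cells of a type in the preparation and less RNA per cell cannot be told apart.

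**Figure D4:**
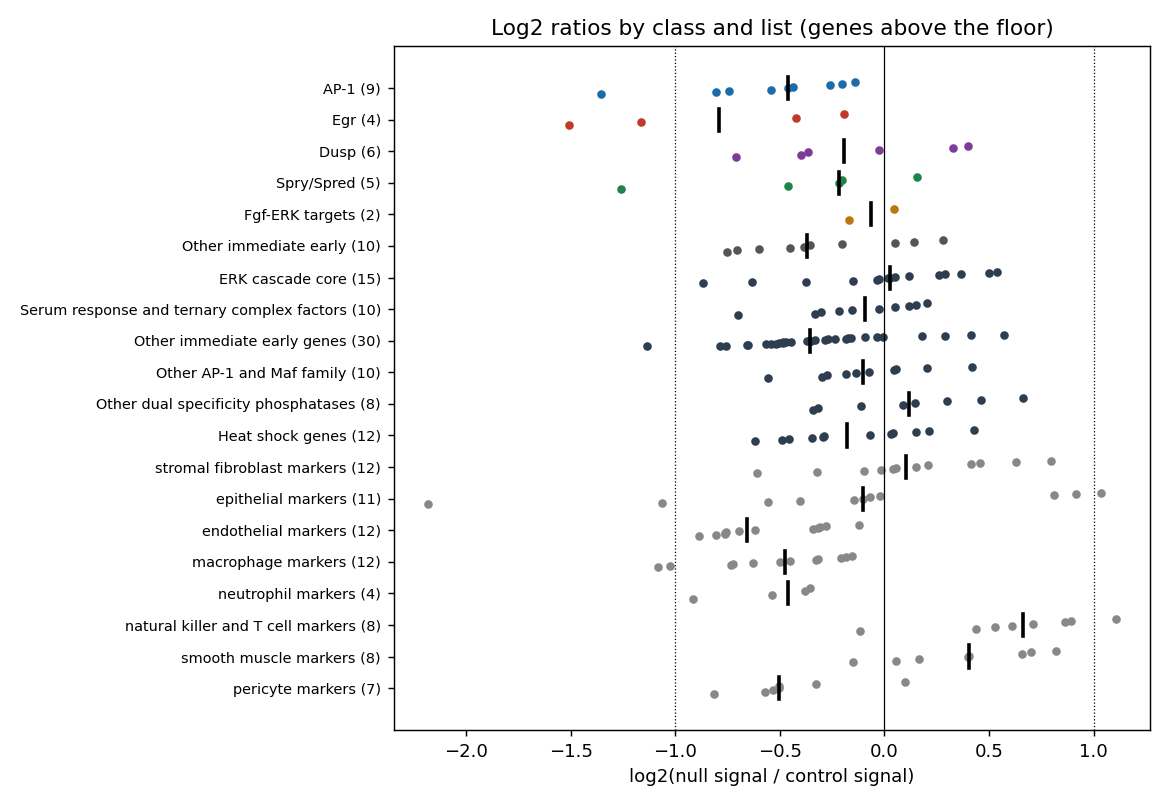
Log2 ratio of null over control for each gene above the floor (points), by member class, by list of related genes (dark) and by cell type marker list (grey), with the number of genes in brackets, the median as a black bar and dotted lines at 2-fold. The AP-1, Egr and both sets of immediate early genes lie mostly left of 0, as do the endothelial, macrophage, neutrophil and pericyte markers, while the ERK cascade genes lie around 0.03.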

How the data were processed

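Gene expression in uterine stromal cells was measured with 1 Affymetrix 3' array per genotype, each of pooled RNA. The deposited values are linear signal intensities, which, per the submitters' processing notes, the authors computed by MAS5 (Affymetrix Expression Console 1). Both arrays had a mean of 150.0 without the highest and lowest 2% of probe sets, so they had been scaled to a common level. MAS5 subtracts mismatch signal, which makes ratios of dim probe sets unstable. Background settings and detection calls are not given in the sources used here.

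Of 45101 probe sets, 64 controls were left out. The platform annotation gave 1 symbol for 34945, several for 932 and none for 9160, and only the first were used, for 18193 genes. Of these, 6360 were under the floor in both arrays. Log2 ratios were computed without pseudocount or further scaling in Python 3.11.15 with pandas 2.3.3. Signals below the floor were set to the floor value, which makes a ratio with 1 such signal a bound. Genes were called by size at 2-fold, and no p-value was computed. The scripts were tested on simulated data. The alternatives concern the floor, the probe set, the scaling, an offset and the fold. In each list of related genes up to 4, and in each marker list up to 3, of the largest ratios above the floor in both arrays are named. Srf, Nr4a1, Nr4a2, Ptgs2, Hspa1b, Mmp9, Cxcr2, Cd3e and Cd3g were named after their values were seen. The members and lists were chosen with earlier results of these data known. Promoter windows are from RefSeq (GRCm38.p6), and Fosl1, Egr1, Egr3, Dusp4, Spry4, Etv4, Ier2, Nfkbiz and Myc had no entry. Some listed genes were not analysed here.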

Additional observations from a re-analysis of the deposited data

How the results depend on the processing

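Of the 36 members above the floor, 35 kept the sign of their ratio under each alternative that gave them a value, and Spry2 turned to -0.12 with the median over probe sets. This count is a weak check, because several alternatives cannot change a sign. An offset, or using only genes above the floor in both arrays, cannot, nor can the median for the 19 of 40 members with 1 probe set. Spred1, Ier5 and Btg1 kept their sign although their probe sets differed in sign. The number of members 2-fold lower was 4 (1.80% of all genes). It was 6 with no floor (9.74% of all genes), 3 over genes above the floor in both arrays (1.56%), 1 with the floor at the 65th percentile (Atf3, 1.27%), 2 with the median over probe sets (178 of 11841 genes, 1.503%), 2 with an offset of 32 in place of the floor (0.71%) and 10 at 1.5-fold (6.92%). The median over members was -0.30 with the offset. The Egr median was -0.60 with the higher floor, -1.16 over genes above the floor in both arrays and -0.63 with the offset. The Dusp median was -0.027 with no floor and over genes above the floor in both arrays, -0.025 with the offset and 0.15 with the higher floor, which leaves fewer genes. The median of the other immediate early genes was -0.28 with the median over probe sets. Beyond the smaller number of genes under the stricter floors, the cause of these shifts was not tested. Scaling had little effect, with 4 members 2-fold lower and 29 lower in all under quantile normalization and under centring, which moved ratios by 0.01. No paired analysis was possible because each genotype had 1 array.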
